A study of Mus musculus with 20 samples.

Results

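The tallest GPS2 peaks of the study formed a small set: 644 of the 158026 peaks on chromosomes 1 to 19 held at least 15 normalized tags, and merging the overlapping ones left 418 regions. A normalized tag is a sequenced tag after each library was scaled to 10000000 tags. The limit of 15 was passed by 204 of 42486 peaks in untreated 3T3-L1 cells (0.480%), by 251 of 57169 after FCCP (0.439%), by 111 of 18722 in female brown adipose tissue (0.593%) and by 78 of 39649 in male brown adipose tissue (0.197%). It stood for about 112, 100, 59.0 and 45.1 tags in these libraries. The regions were 135 to 438 bp wide, with a median of 261 bp, and together they covered 97.082 kb. Because height chose them, their heights are given as a description only.

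Of the 20 samples, 4 have a peak list, each from chromatin immunoprecipitation and sequencing (ChIP-seq) of GPS2. 3T3-L1 is a mouse preadipocyte line. It was left untreated or exposed to FCCP, an uncoupler of mitochondrial respiration, and each cell list was called without a control on a pool of libraries named A and B. Brown adipose tissue (BAT) came from GPS2 wild-type mice, and the GPS2 library of knockout tissue of the same labelled sex served as the background of each list. The knockout was a Gps2 flox/flox deletion by Cre under the adiponectin promoter (Adipoq-Cre), on a mixed 129sv/C57BL6J background for both genotypes, so cells of the tissue that are not adipocytes keep GPS2 in the knockout. The labels give no ages, and neither dose nor time of FCCP. The sample labels give a female and a male pair, while the growth protocol speaks of males only; the lists are called by the sample labels here. With a single list for each condition, differences between lists rest on no replicates, and no test was made. Peaks carry no gene names, so the labelled tissue was not checked against marker genes.

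GPS2 is a small subunit of the NCoR and SMRT corepressor complexes, which hold histone deacetylase HDAC3 at regulatory DNA, and it is also known as an inhibitor of ubiquitin conjugation. A factor that binds a single-copy site gives a peak whose tags flank the site on both strands and which is lost with the factor. Genome assemblies, by contrast, can carry a family of near-identical copies as fewer copies than the animal has. Tags of the missing copies then gather on the copies shown, in a control library as well as in an immunoprecipitate. Whether that is how these regions arose was not tested, because no sequence, repeat or gene annotation of the files' build (mm8) was used here; the regions are named by mm8 position. The deposited measures that bear on it are given one by one: recurrence, tags left in the knockout, strand balance, repeated tag positions and spacing.

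The female BAT list held the tallest peaks by a wide margin. Its tall peaks had a median of 155.2 normalized tags (quartiles 37.5 and 374), against 20.9 in untreated cells (17.2 and 29.7), 21.6 after FCCP (17.3 and 29.7) and 21.2 in male BAT (16.2 and 55.8). The peaks under the limit had medians of 3.89, 4.03, 3.31 and 4.32 in the order untreated, FCCP, female and male. The 10 tallest regions all owed their rank to the female list.

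**Figure D1:**
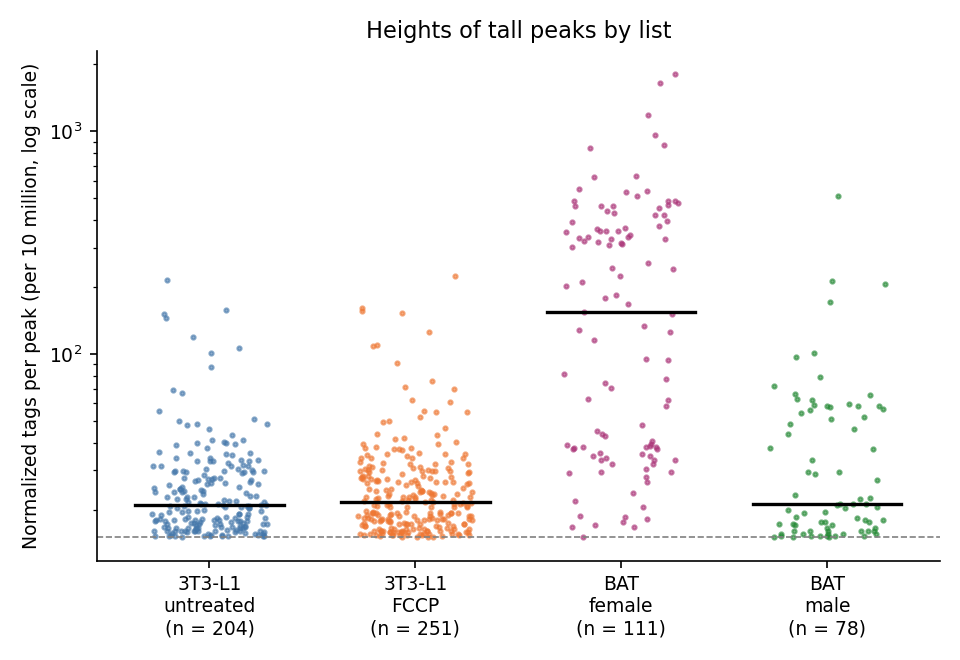
Height of every tall peak in normalized tags per 10000000 (log axis) by list; points are peaks, the black bars are medians and the dashed line is the limit of 15. The female BAT points reach 1813.2 and sit mostly above the medians of the other lists, between 20.9 and 21.6.

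The tallest region, chr12:97457264-97457578, held 48.6 normalized tags in untreated cells, 54.8 after FCCP and 1813.2 in female BAT (95% counting interval 1771 to 1856), with no male peak. Next came chr18:90736418-90736789 with 37.7, 40.2 and 1654.5, again without a male peak. The third, chr11:121798364-121798609, had 20.3, 23.7 and 1190.8. At these 3 regions the female peak was therefore more than an order of magnitude taller than the cell peaks, and the male list had none.

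The same order of lists held further down. At chr6:9839865-9840136 the values were 18.5 in untreated cells, 22.8 after FCCP and 965.6 in female BAT. At chr5:152002867-152003062 they were 13.7, 15.8 and 872.0, at chr14:85029525-85029846 they were 16.4, 18.4 and 842.3, and at chr2:57444829-57445134 they were 36.1, 39.3 and 632.9. The remaining members of the 10 tallest were tall in female BAT alone. They were chr1:194928527-194928665 with 11.7, 11.9 and 624.3, chr12:16773276-16773414 with 9.13, 10.0 and 549.5, and chr13:117313558-117313696 with 8.19, 9.26 and 539.0. None of the 10 had a peak in the male list.

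The tallest male peak lay in chr9:95235203-95235467, the only region that was tall in all 4 lists. It held 18.1 normalized tags in untreated cells, 22.2 after FCCP, 423.0 in female BAT and 511.2 in male BAT. Here both tissue lists stood more than an order of magnitude above both cell lists. The next male peaks held 212.2 at chr1:24568728-24568862, 207.2 at chr17:67646372-67646506, 170.6 at chr1:24566063-24566197 and 101.4 at chr2:22441662-22441796.

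The tallest peaks of the cell lists were other regions. The region chr2:98467867-98468131 held 215.3 normalized tags in untreated cells (95% counting interval 205 to 226) and 223.5 after FCCP (212 to 235). The regions chr14:39187515-39187783, chr9:35054926-35055201, chr12:3109866-3110139 and chr14:18209878-18210153 followed in both lists, in that order, with 157.3, 151.7, 144.8 and 119.3 in untreated cells and 161.5, 155.9, 152.3 and 126.0 after FCCP. None of these 5 had a peak in either BAT list.

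Most regions recurred in more than 1 list. Of the 418 regions, 341 had a peak of any height in at least 2 lists (81.6%, Wilson 95% interval 77.6 to 85.0), while 15.4% of the 136049 merged regions of all peaks did. A tall peak in at least 2 lists was present at 209 (50%, 45.2 to 54.8), in at least 3 at 16, and in all 4 at 1. Since the rule chose these 209 in more than 1 list, their recurrence is part of the choice. Of the other 209, tall in 1 list only, 132 had a lower peak in another (63.2%, 56.4 to 69.4). Peaks of any height were found in all 4 lists at 9 regions and in a single list at 77. Wilson intervals throughout cover counting error only and treat regions as independent. Taller peaks pass a caller's limits more easily, so a higher recurrence at greater height is partly built into the comparison.

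Within the cells, nearly every tall peak recurred. Of the tall untreated peaks, 194 of 204 overlapped an FCCP peak (95.1%, 91.2 to 97.3), against 41.0% of the lower untreated peaks and 41.3% of the whole list. After FCCP, 222 of 251 tall peaks overlapped one of the untreated list (88.4%, 83.9 to 91.8), against 30.4% of the lower peaks and 30.7% of the list. Much of this overlap was between peaks that the rule chose in both lists: 182 regions were tall in both, 168 of them in no tissue list, which was the most frequent pattern.

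Between tissue and cells the lists differed. In female BAT, 84 of 111 tall peaks overlapped a peak of a cell list (75.7%, 66.9 to 82.7), against 5.85% of all female peaks. In male BAT it was 19 of 78 (24.4%, 16.2 to 34.9), against 5.07% of all male peaks. In the other direction, 25 of 204 tall untreated peaks and 30 of 251 tall FCCP peaks (12.3% and 12.0%) overlapped a peak of either BAT list, against 4.24% and 3.51% of those lists. Peaks in both a tissue and a cell list were present at 108 of the 418 regions (25.8%, 21.9 to 30.2), compared with 2.20% of all merged regions. Most of the tall female peaks thus had a counterpart in the cells, most of the tall cell peaks had none in tissue, and 20 regions were tall in both.

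Overlap between the tissue lists differed by direction. Of the tall male peaks, 42 of 78 overlapped a female peak (53.8%, 42.9 to 64.5), against 3.60% of all male peaks. Of the tall female peaks, 24 of 111 overlapped a male peak (21.6%, 15.0 to 30.2), against 7.62% of all female peaks. Regions tall in female BAT alone numbered 71, in male BAT alone 53 and in both tissue lists but no cell list 21.

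The tallest region of each remaining pattern was of more moderate height. Tall after FCCP alone was led by chr17:13343369-13343629, with 60.9 normalized tags after FCCP and no peak in the other lists, and tall in untreated cells alone by chr13:74996413-74996677, with 47.9 and again no other peak. The region chr17:67646212-67646512, tall in all lists but the untreated one, held 13.4 in untreated cells, 16.1 after FCCP, 155.2 in female and 207.2 in male BAT. At chr3:152252151-152252486, tall in both cell lists and male BAT, the values were 21.2, 21.2 and 22.3. At chr6:51399424-51399688, tall in untreated cells and female BAT, they were 19.1 and 38.2, with a lower FCCP peak of 13.9. Tall in both tissue lists and no cell list was led by chr1:24566063-24566246, with 73.8 in female and 170.6 in male BAT. Some of these patterns thus turn on a peak just under the limit in another list, and others on the lack of any peak there.

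**Figure D2:**
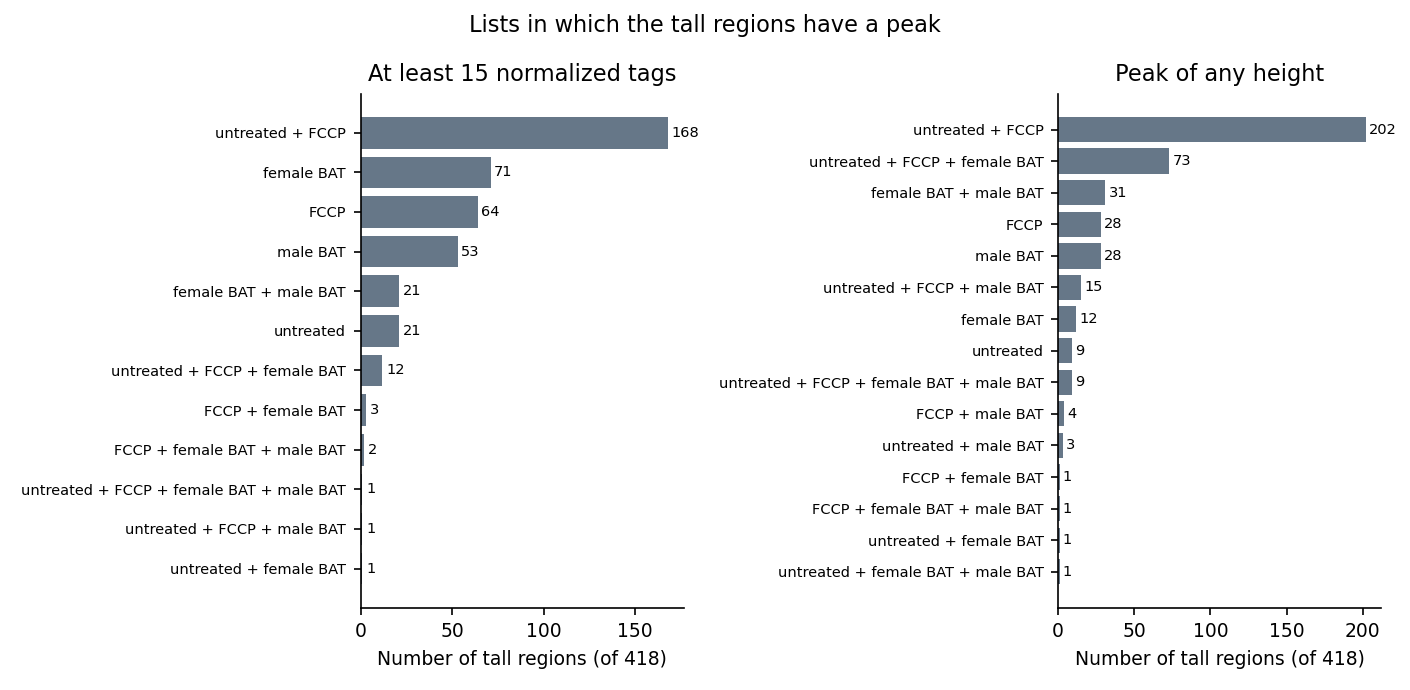
Number of the 418 regions by the combination of lists with a tall peak (left) and with a peak of any height (right); bar length is the count. Tall peaks in untreated and FCCP cells lead on the left with 168, and on the right 202 regions have peaks in these lists only.

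Whether a region missed the limit in another list or had no peak there depended on the pair of lists. Of 69 regions tall after FCCP but not in untreated cells, 40 had a lower untreated peak, of 10.9 to 14.9 normalized tags. Of 22 tall in untreated cells but not after FCCP, 12 had a lower FCCP peak, of 10.9 to 14.8. Of 93 tall in female BAT but not after FCCP, 64 had a lower FCCP peak, with a median of 9.19. These lower peaks were still high in their own lists, since 98.2% of FCCP peaks were below 9.19.

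For several pairs that involve tissue, lower peaks were rare or absent. Of 87 regions tall in female BAT but not in male BAT, 0 had a lower male peak and 6 had any male peak within 500 bp. Of 54 tall in male BAT but not in female BAT, 18 had a lower female peak, of 3.56 to 13.0 normalized tags. Of 233 tall after FCCP but not in female BAT, 0 had a lower female peak and 4 any female peak within 500 bp, and of 247 tall after FCCP but not in male BAT, 11 had a lower male peak. A male peak also had to reach 2-fold over its own knockout, and the lower quartile of the fold at tall male peaks was 2.20. How many of the 87 were lost at that limit was not tested, since regions that were not called have no row.

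Where both cell lists had a peak, their heights ran together. At 299 such regions the log2 ratio of FCCP to untreated had a median of 0.12 (quartiles 0.03 and 0.25), with FCCP higher at 245 (81.9%). Its SD over regions was 0.19 on the log2 scale, beside 0.18 from counting alone at a region of median height. Across these regions Spearman's rho was 0.959, as a description; the points share their libraries and the selection by height. The median level was 16.8 normalized tags in untreated cells and 18.4 after FCCP. The ratio ran from -0.52 to 0.61 over these regions. Its spread was thus about that of counting.

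Where both tissue lists had a peak, the male one was the taller at 42 of 42 regions. At 18 of these only the male peak passed the limit of 15, so the rule fixed the order there. The log2 ratio of female to male had a median of -1.15 (quartiles -1.37 and -0.68), and rho was 0.890 across the 42. Medians were 23.7 normalized tags in female and 47.3 in male BAT. By contrast, at the 84 regions with both a female and an FCCP peak the medians were 314.8 and 10.0, the female peak was higher at all 84, and rho was 0.160. At 64 of the 84 only the female peak passed the limit, which fixed the order there as well. The male and FCCP heights at 29 regions had medians of 16.0 and 15.4 and a rho of -0.322. At 12 of these only the male peak passed the limit and at 11 only the FCCP peak did, a choice that by itself pulls rho down. Among regions called in both lists of a pair, rho was thus high within cells and within tissue, and low or negative between them, as a description only. How much of that contrast comes from the choice of regions by height was not tested. The 87 regions tall in female BAT but not in male BAT have no male peak, so the tissue comparison leaves them out.

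Tall BAT peaks kept many tags in the knockout libraries. In the female list the knockout library held a median of 49.97 tags per 10000000 at tall peaks (quartiles 12.6 and 111), against 0.549 at the other peaks. In the male list the medians were 8.01 (4.96 and 23.9) and 0.665. At most 10 knockout tags were counted at 7 of 111 tall female peaks and at 0 of 78 tall male peaks, where the lowest was 12 tags. Among the lower peaks, 18588 of 18611 female and 37728 of 39571 male ones had at most 10. The call at 2-fold over knockout caps the knockout tags of a peak at a level set by its height, so lower peaks could hold only few. The ratio of the genotypes uses the wild-type tags that chose the peaks. Knockout level and ratio are therefore given without a test. With a limit of 10 normalized tags these medians were 28.1 and 3.62, and with a limit of 20 the male one was 23.0. At tall peaks that overlap a cell peak the medians were 89.9 and 13.3, and without clustered peaks the female one was 89.5.

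The wild-type to knockout fold was lower at tall peaks, with quartiles closer together. Its median was 3.31 in female BAT (quartiles 3.03 and 3.57) and 2.62 in male BAT (2.20 and 3.42), against 6.02 (4.63 and 10.2) and 5.41 (4.18 and 8.11) at the other peaks of each list. A fold under 4 was found at 92 of 111 tall female peaks (82.9%, 74.8 to 88.8), while 8.67% of all female peaks had one. In male BAT it was 65 of 78 (83.3%, 73.5 to 90.0), while 21.8% of all male peaks had one. Both lists were cut at 2-fold by the caller, and a low peak with few knockout tags can pass with a high fold by counting error alone, so the lower peaks are not a clean reference for this ratio.

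At most tall peaks the fold lay within counting error of the median fold of the tall peaks of their list. The exact 95% interval of the fold held that median, 3.31, at 83 of 111 tall female peaks, with 16 above it and 12 below. It held the male median, 2.62, at 67 of 78 tall male peaks, with 8 above and 3 below. Each median was taken from the same peaks. In both lists more intervals missed it than 95% intervals would under 1 common fold. The intervals treat tags as independent, so tags stacked at repeated positions, described below, would make them too narrow. A fold of at least 10 occurred at 8 of 111 tall female peaks (7.21%) and at 0 of 78 tall male peaks, whose highest was 6.53. Among the other peaks it occurred at 5077 of 18611 in female BAT (27.3%) and at 6663 of 39571 in male BAT (16.8%), where counting error can raise the fold. The plot of wild-type against knockout tags shows most tall peaks of each list along a band.

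**Figure D3:**
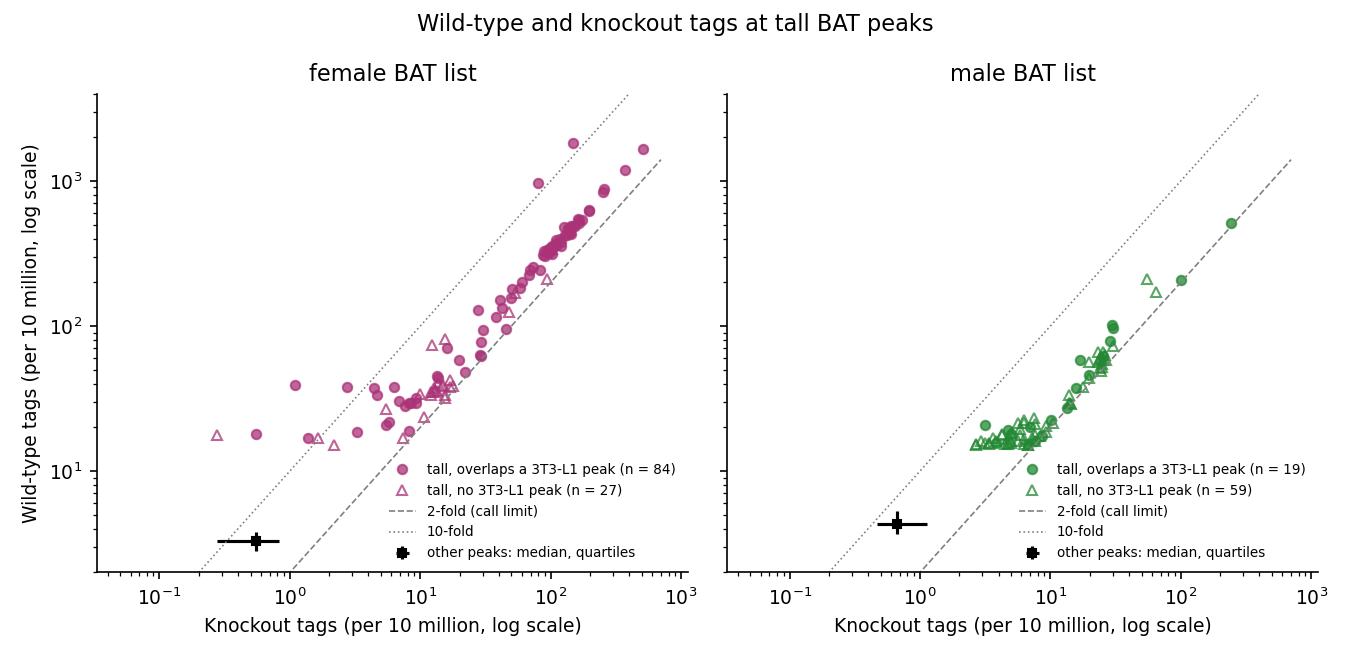
Wild-type against knockout tags per 10000000 (log axes) at tall peaks of the female (left) and male (right) BAT list; filled circles overlap a 3T3-L1 peak, open triangles do not, the black square with bars gives the median and quartiles of the other peaks, and grey lines mark 2-fold and 10-fold. Most tall peaks lie along a band with a median fold of 3.31 (female) and 2.62 (male), and a few female peaks lie near or above the 10-fold line.

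The peaks with the highest knockout counts were among the tallest. In female BAT these were chr18:90736501-90736639 with 1863 knockout tags and a 3.23-fold excess of wild type (95% interval 3.07 to 3.41), chr11:121798468-121798604 with 1345 and 3.24-fold (3.03 to 3.43), and chr5:152002930-152003060 with 941 and 3.49-fold. In male BAT they were chr9:95235259-95235393 with 1072 tags and 2.12-fold (1.95 to 2.29), chr17:67646372-67646506 with 446 and 2.15-fold, and chr1:24566063-24566197 with 287 and 2.65-fold. Each of them thus kept at least 287 tags in the knockout, at folds within a narrow range in each list.

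A small number of female peaks departed from that band, including 2 of the 5 tallest. The peak chr12:97457264-97457402 had 539 knockout tags, a fold of 12.24 (11.2 to 13.4), and chr6:9839942-9840080 had 293, a fold of 11.99 (10.7 to 13.6). Their intervals lie well above 3.31, the median of the tall female peaks. At chr14:85029525-85029846 and chr2:57444829-57445134, by comparison, the folds were 3.34 and 3.24.

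The tall female peaks with the fewest knockout tags were of moderate height. The peak chr19:7008573-7008711 held 17.6 normalized tags and 1 knockout tag, a 63.86-fold excess with an interval from 11.1 upward. At chr1:46798051-46798189 the values were 18.1, 2 and 32.86-fold (8.78 to 277), and at chr15:79373866-79374004 they were 39.4, 4 and 35.87-fold (13.7 to 133). These 3 peaks were thus nearly free of knockout tags, and the last 2 of them also had peaks in both cell lists, of 10.5 to 13.3 normalized tags. The male peaks with the fewest, chr11:114142599-114142733, chr16:31413929-31414063 and chr8:124836068-124836202, still had 12, 12 and 13 knockout tags and folds of 5.53, 5.65 and 5.44.

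Strand balance differed between tissue and cells. The focus ratio is HOMER's share of the tags of a peak that lie where the strands should place them around its centre, near 1 for a sharply centred peak. Tall peaks had medians of 0.657 in untreated cells and 0.677 after FCCP, under the 0.725 of the other peaks in both lists. In female BAT the median was 0.903, above the 0.750 of the others, and in male BAT it was 0.774 beside 0.773. A ratio of at least 0.95 was reached by 52 of 111 tall female peaks (46.8%, 37.8 to 56.1; 0.518% of the list), by 6 of 78 male ones (7.69%; 0.462%), by 4 of 251 FCCP ones (1.59%; 0.668%) and by 1 of 204 untreated ones (0.490%; 0.395%).

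Repeated tag positions set the tall female peaks apart from the rest of their list, but not the tall male ones. The clonal fold change compares the distinct tag positions expected for the number of tags with those found, so a value above 1 means fewer positions than expected, and the caller removed peaks above 2. The female limit removed 86 peaks and the male one 9, while the cell lists lost 0. Above 1 were 70 of 111 tall female peaks (63.1%, 53.8 to 71.5), with a median of 1.22 against 0.87 in the other female peaks and 4.36% of the list above 1. In male BAT it was 19 of 78 (24.4%, 16.2 to 34.9; 27.0% of the list), with medians of 0.92 and 0.96. In the cells no peak of either list exceeded 1 (0.00%), and the medians at tall peaks were 0.76 and 0.77 against 0.95 at the others. The measure depends on the number of tags, and so on the height that chose the peaks.

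**Figure D4:**
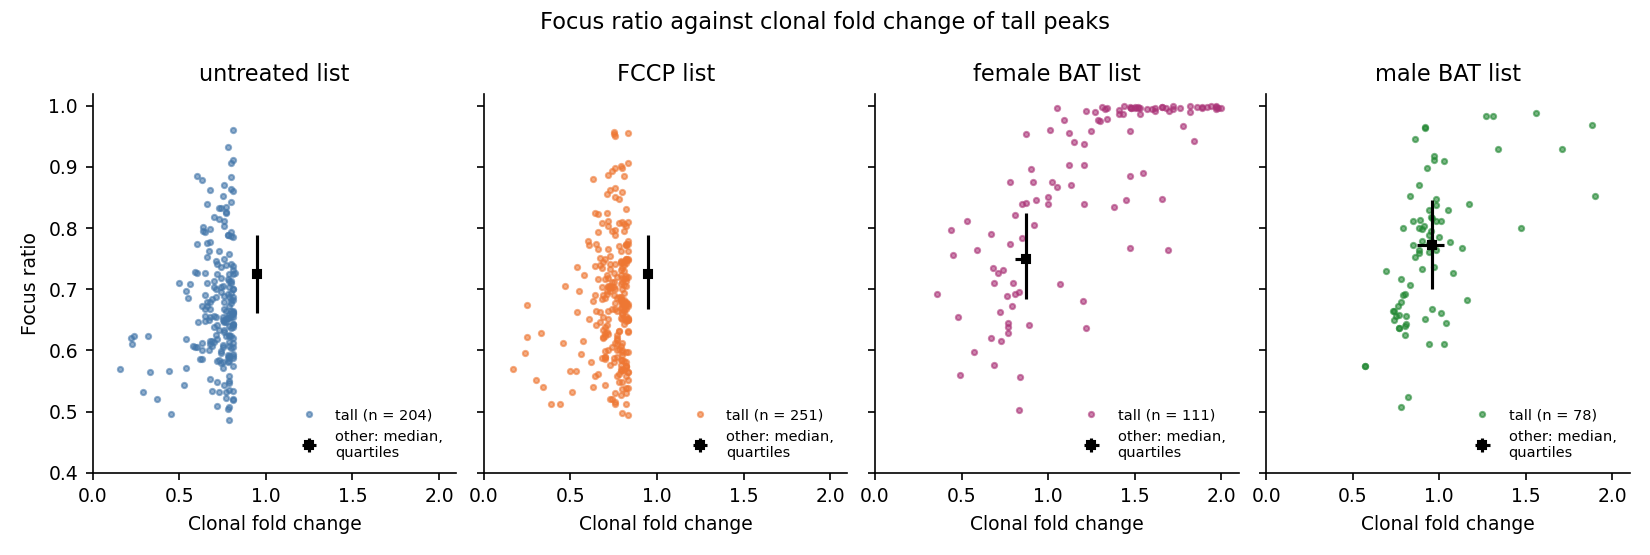
Focus ratio against clonal fold change of the tall peaks in each list; points are peaks, and the black square with bars is the median and quartiles of the other peaks. Cell peaks have a clonal fold change of at most 0.83, whereas the female BAT peaks extend to 2.00 with focus ratios up to 0.999.

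The heights and HOMER's own tag score parted at the tall BAT peaks. The file headers give a maximum of 1 tag per base pair for the BAT lists and 3 for the cell lists, but the tallest female peak held 51.7 tags per base pair, the tallest male peak 11.5, and the tallest cell peaks 6.08 (untreated) and 5.76 (FCCP). The tag score per counted tag had a median of 0.199 at tall female peaks against 0.999 at the others, and 0.722 against 0.847 in male BAT. In both cell lists it was about 1.01 at tall peaks. At the tallest female peak the score was 384 where the height corresponds to 7128 tags. Normalized tags of the tallest BAT peaks therefore were not limited by the stated maximum. For the cell lists this cannot be told, because whether the maximum counts each strand separately was not checked.

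Tall female peaks fell into sharply isolated and less isolated ones. The fold over the local surroundings, the tag density of the peak over that of the 10000 bp around it, had a median of 114 at tall female peaks against 5.27 at the others. It was at least 50 at 66 of the 111, at 8 of 78 in male BAT, at 7 of 204 in untreated cells and at 7 of 251 after FCCP. Among the other peaks it was at least 50 at 0 of 18611 female, 3 of 39571 male, 1 of 42282 untreated and 3 of 56918 FCCP ones. The division at 50 was made after the values had been seen. The 66 had medians of 3.32-fold over knockout (quartiles 3.14 and 3.45), a focus ratio of 0.994 and a clonal fold change of 1.49. Of them, 65 overlapped a cell peak, 4 a male peak and 0 lay in a cluster. The other 45 had medians of 3.23, 0.726 and 0.81, and 24 of them lay in clusters. Their fold over knockout was less uniform, with quartiles of 2.64 and 5.63. Its interval held 3.31 at 25 of the 45, beside 58 of the 66.

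Female peaks were also grouped by the lists that shared them. This is no separate evidence of the division, since 65 of the 66 isolated peaks overlapped a cell peak and only 4 a male peak. The 75 that overlapped a cell peak but no male peak had a median height of 328.9, a focus ratio of 0.987 and a clonal fold change of 1.45. The 15 that overlapped a male peak but no cell peak had medians of 36.1, 0.672 and 0.77. The 9 shared with both had 33.3, 0.875 and 1.12, and the 12 shared with neither 37.4, 0.829 and 0.92. The female peaks shared with the cells and not with male BAT thus had the highest medians of height, focus ratio and clonal fold change among these 4 groups.

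Of the 418 regions, 100 lay in 19 clusters of at least 3 with neighbouring centres up to 50 kb apart (23.9%, 20.1 to 28.2), 20 pairs held 40 and 278 stood alone. The merged regions of all lists are so dense that 97.6% of them meet the same rule, so this share is a description of the tall regions and not a contrast. Chromosomes 5, 6, 8, 2 and 1 carried 44, 41, 40, 39 and 36 regions, and chromosome 19 the fewest, 8. A limit of 10 normalized tags gave 60 clusters, and merging peaks up to 1 kb apart gave 11. Of the 81 gaps between neighbours inside clusters, 21 were within 10% of their cluster's median gap (25.9%). In the 11 clusters with an odd number of gaps the median is itself a gap, so 11 of the 21 were fixed by construction, and 10 of the other 70 gaps came within 10% (14.3%). Chromosome 6 held 8 of the 21, and 13 of 63 gaps elsewhere were within 10% (20.6%, medians included). Counted within single lists the numbers were small: 12 of 20 gaps for female BAT, 8 of 17 for male BAT, 5 of 30 for untreated cells and 7 of 45 for FCCP. Of these, 2, 1, 2 and 3 were medians. In both tissue lists 8 of the gaps within 10% lay on chromosome 6, which left 4 of 9 elsewhere in female and 0 of 2 in male BAT.

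Regular spacing was plainest on chromosome 6. The cluster chr6:47584604-47615069 held 10 regions over 30.465 kb, and chr6:47666823-47707841 held 10 over 41.018 kb; the centres of their facing regions were 51.957 kb apart with 0 peaks of any height between. Gaps in the first were 4330.5, 3782.5, 565, 4339, 4310.5, 3769.5, 560.5, 4336.5 and 4331 bp. Both short gaps followed a region that was called in male BAT only, of 28.9 and 29.6 normalized tags, and together with the gap before they came to 4347.5 and 4330 bp. Leaving those regions aside, the first cluster was a row of 8 regions with steps of 4310.5 to 4347.5 bp. They were left aside after the gaps had been seen. Another region called in male BAT only, chr6:47610600-47610734, was kept, and without it the row would have a gap of 8667.5 bp.

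In the second cluster the steps were less even. Its gaps were 2611, 4250.5, 4375.5, 4309, 4878, 5576.5, 5850.5, 2892 and 6011 bp. Over both clusters 8 of 18 gaps fell between 4200 and 4400 bp, with a median of 4330.75 bp among these 8. The window from 4200 to 4400 bp was set after the gaps had been seen.

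These chromosome 6 regions were tissue regions. Female BAT had 13 tall peaks there, of 32.1 to 42.7 normalized tags, and male BAT 17, of 18.6 to 72.2. Untreated cells had 2 and FCCP cells 1, all at the edges of the second cluster. Fold over knockout was 2.08 to 3.45 in female and 2.00 to 2.83 in male BAT, with 9.88 to 17.8 and 9.25 to 30.0 knockout tags per 10000000. Focus ratios had medians of 0.689 and 0.658, and the clonal fold change was 0.77 in both. Female heights there spanned a narrow range, and each tall tissue peak had knockout tags. The male peaks without a tall female peak ranged from 18.6 to 66.5.

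**Figure D5:**
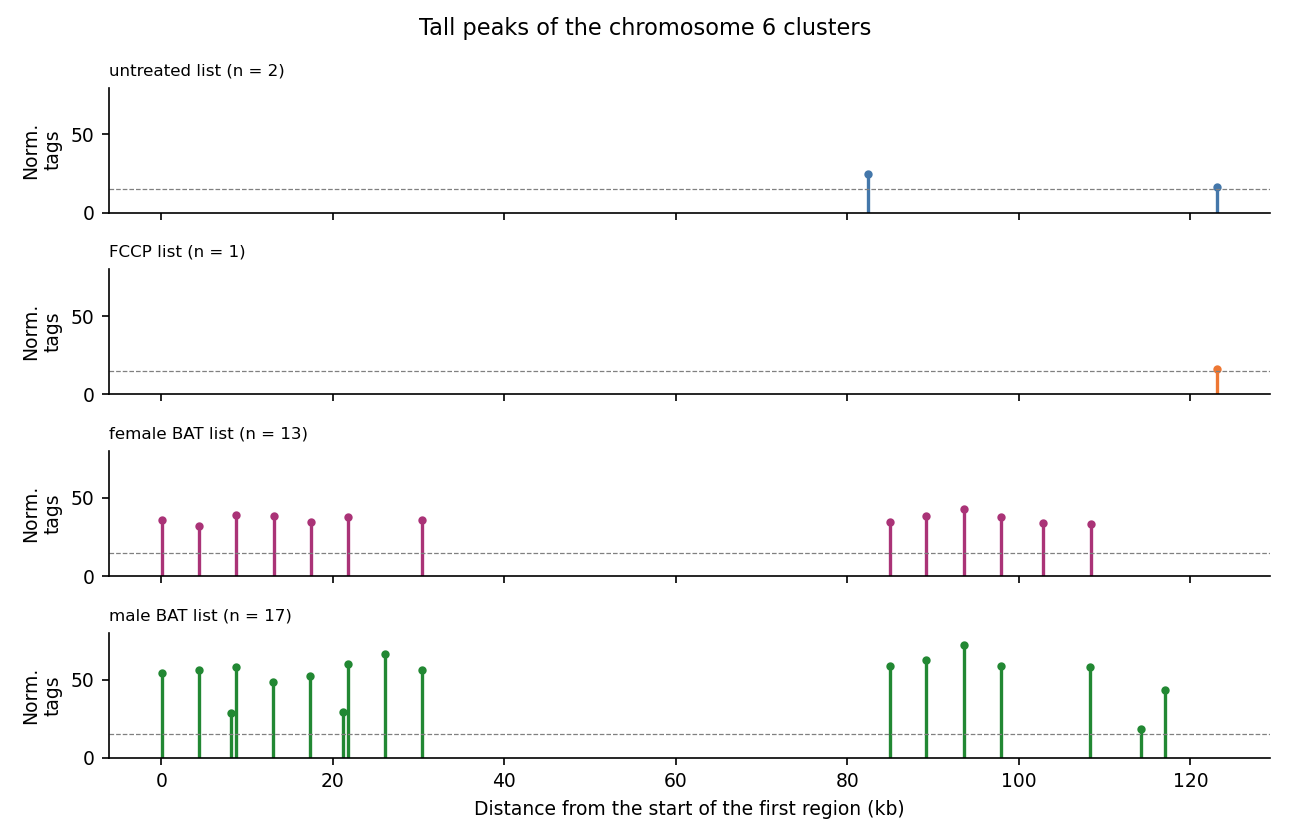
Tall peaks of the chromosome 6 clusters in the 4 lists; the horizontal axis is the distance in kb from the start of the first region, the vertical axis normalized tags, and the dashed line the limit of 15. Evenly stepped peaks appear in the BAT lists, 13 in female and 17 in male, while the cell lists show 2 and 1.

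The other large clusters were split in the same way between tissue and cells. On chromosome 5, chr5:15118669-15215533 held 9 regions, all tall in both cell lists and none with a tall tissue peak, with gaps from 769.5 to 29822 bp and 0 of 8 within 10% of the median. Its neighbour chr5:14965653-15068368 held 8 regions, all tall after FCCP and 6 in untreated cells, and the median was its only gap within 10%. On chromosome 8, chr8:19875570-20023421 held 8 regions, with 4 tall untreated, 7 tall FCCP and 1 tall male peak. With gaps of up to 200 kb allowed, the chromosome 8 group grew to 21 regions over 774 kb and the chromosome 5 group to 18 over 309 kb. Inside that chromosome 8 group, the 4-region clusters chr8:20297423-20362834 and chr8:19682348-19801140 each had 2 of 3 gaps within 10% of their median, of which 1 is the median itself. These numbers of gaps are too small to tell an even step from none.

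A pair of compact clusters belonged mainly to tissue. The cluster chr1:24566063-24569403 held 6 regions within 3.34 kb, with 5 tall female peaks of 73.8 to 210.6 normalized tags, 2 male peaks of 170.6 and 212.2, and no cell peak. Female folds over knockout there had a median of 3.16 and the local fold was 2.06 to 6.21. The cluster chr2:22439301-22441796 held 6 regions within 2.495 kb, each tall in female BAT at 26.7 to 95.4, with 3 male peaks of 65.8 to 101.4 and FCCP peaks of 19.6 and 20.5. Of its 5 gaps, 2 were within 10% of the median of 407.5 bp, the median included. A further cluster, chr2:77760233-77826932, had 6 regions over 66.7 kb that were tall in 1 cell list each, 5 of them in FCCP cells, and 2 of 5 gaps within 10%, again with the median.

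Peaks in clusters differed in their medians from the others within each tissue list. The clustered peaks came from few places and are not independent members: 13 of the 24 female and 17 of the 24 male ones lay on chromosome 6. In female BAT the 24 clustered tall peaks had a median focus ratio of 0.685, a clonal fold change of 0.77 and a fold over knockout of 2.76, beside 0.977, 1.41 and 3.34 at the 87 alone or in pairs. In male BAT the corresponding values were 0.657, 0.78 and 2.41 at 24 peaks, beside 0.808, 0.96 and 3.14 at 54. Heights differed too, with medians of 37.8 beside 313.4 in female BAT and 58.2 beside 17.6 in male BAT. In the cells the clustered peaks had the higher focus ratio, 0.703 beside 0.647 in untreated cells and 0.712 beside 0.663 after FCCP. After FCCP the fold over the surroundings was 4.92 at 65 clustered and 11.3 at 186 other tall peaks. Clustered peaks raise the surroundings of each other, which lowers that fold by construction.

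Some regions lay at the outermost called peaks of a chromosome. Of the 418, 4 were the last peak of their chromosome in any list, and 3 of these are among the 5 tallest: chr18:90736418-90736789, chr11:121798364-121798609 and chr5:152002867-152003062. The other last peak, chr13:120613995-120614320, held 16.0 and 15.8 normalized tags in untreated and FCCP cells and was not called in tissue. Another 4 regions were the first peak of chromosomes 4, 5, 11 and 18. Within 100 kb of the first or last peak lay 9 and 11 regions. Chromosome lengths of mm8 were not used here, so distances to the assembly's own ends are not given.

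The limit of 15 cut through a continuous range of heights. Just inside it, at 15.0, were the male peaks chr11:114142599-114142733 and chr17:26366418-26366552 and the female peak chr4:140281592-140281730. Just outside it, at 14.9, were the FCCP peak chr1:155969240-155969500 and the untreated peaks chr12:117120232-117120496 and chr15:12817801-12818065. A limit of 10 would have given 1621 regions and a limit of 20 would have given 261.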

How the data were processed

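Reads were mapped to mm8 with Bowtie2 and HOMER called the peaks, according to the submitters' processing notes; versions are not given in the sources used here. Per the file headers, the cell lists were called without a control with a false discovery rate of 0.001, a local excess of 4-fold within 10000 bp and a maximum of 3 tags per base pair. The BAT lists were called against the knockout with a rate of 0.05, excesses of 2-fold over knockout and surroundings, and a maximum of 1 tag per base pair. The authors deposited for each peak a normalized tag signal per 10000000 tags, a focus ratio as a fraction, a tag score, folds over surroundings, knockout and expected positions as ratios, and p-values, which entered no comparison. The male list also holds the deposited count of wild-type tags. The libraries held 74504840 (untreated), 66979291 (FCCP), 39310667 (female) and 30069322 (male) tags per the file headers. Knockout libraries of 36423065 (female) and 44326496 (male) tags were worked out from the deposited values, and male knockout tags from a step of 0.67836 that gave whole tags within 0.05 for 100% of values.

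Peaks sharing at least 1 bp were merged. Shares carry Wilson 95% intervals, folds exact Clopper-Pearson intervals and heights Poisson intervals, all for counting error only. Those of folds and heights treat tags as independent. Calculations used pandas 2.3.3 with numpy 2.4.6 and SciPy 1.17.1 under Python 3.11.15, and figures matplotlib 3.10.9. The merging, clustering and interval steps were tested on simulated data. Alternatives were limits of 10 and 20 normalized tags, other overlaps, merging and cluster distances, a 20% spacing tolerance, and subsets of peaks. The regions, measures and tests were chosen with earlier results of these data known. Regions named are the 10 tallest, the 5 tallest peaks of each list, the tallest of each pattern of lists, the 8 largest clusters, 3 on each side of the limit, and per BAT list the 3 lowest and 3 highest in knockout tags; the peaks at chromosome edges were singled out after their values were seen. The other 16 samples have no list here; of these only the GPS2 libraries of knockout BAT enter, as the background of the BAT lists. Gene names and sequences were not used here, because the tables at hand are on another build (GRCm38.p6).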

Additional observations from a re-analysis of the deposited data

Results flagged for a closer look

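Tall peaks also occurred outside chromosomes 1 to 19, in data that no comparison above uses, and those of the BAT lists had tags in the knockout as well. On the mitochondrial genome the female list held 9 tall peaks of up to 2783.5 normalized tags, with a median fold over knockout of 3.67, and the male list 3 of up to 606.9, with a median of 2.4. On X the female list held 4, with a median fold of 3.185. The list labelled female also held 1 tall peak on Y, of 602.9 normalized tags and a fold of 3.15. The median folds at tall peaks of chromosomes 1 to 19 were 3.31 in the female and 2.62 in the male list. Each cell list had 7 tall peaks on X, of up to 45.1 normalized tags in untreated cells and 55.4 after FCCP, with no control to set beside them. Whether these peaks have the same source as those described above was not tested.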

How the results depend on the processing

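Of 79 alternative values, 40 were sorted as unchanged and 39 as moved. For shares and medians, unchanged means that the value stayed within the interval of the main value. Numbers of regions and clusters have no such interval and were sorted by the size of the change. Whether any difference between tall and other peaks changed direction was not tested. Medians of the fold over knockout stayed between 2.41 and 3.34. The cause of each move was not tested, beyond the different members that an alternative takes in. With a limit of 10 normalized tags there were 1621 regions, 33.7% tall in at least 2 lists, 65.6% with any peak in at least 2, 15.6% in tissue and cells, and 16.3% in 60 clusters. The male knockout median was then 3.62 and its fold 3.24, clonal medians 0.840 and 0.860 in untreated and FCCP cells, and the FCCP focus ratio 0.659. With a limit of 20 there were 261 regions, 85.1% with any peak in at least 2 lists and 34.1% in tissue and cells. The male knockout median was then 23.0, the male focus ratio 0.716, and clonal medians 0.685, 0.710 and 0.830 in untreated, FCCP and male lists. Counting peaks within 500 bp as shared gave 86.6% with any peak in at least 2 lists. Cluster shares were 15.8% with neighbours up to 10 kb, 28.7% with 200 kb and 16.5% in 11 clusters with peaks up to 1 kb apart merged. The share of even gaps was 42.0% at a tolerance of 20%, 36.5% with that merging, and 16.7%, 15.6%, 60% and 47.1% within the untreated, FCCP, female and male lists, and 20.6% without the chromosome 6 clusters, added after the data were seen. Without clustered peaks the knockout medians were 89.5 in female and 6.32 in male BAT and the male fold 3.14, focus ratios were 0.663, 0.977 and 0.808 in FCCP, female and male lists, and the male clonal median was 0.960. At peaks that overlap a cell peak the knockout medians were 89.9 (female) and 13.3 (male). At female peaks that overlap none, an alternative added after the data were seen, the fold was 2.76 and the focus ratio 0.708. No paired analysis was possible because there was 1 list per condition and no test was made.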
